A study of Drosophila melanogaster with 6 samples.

Results

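The cytosolic ribosomal protein genes were examined in wing imaginal discs of *Drosophila melanogaster*. A gene was taken when its FlyBase symbol began with RpL or RpS followed by a digit, or with RpLP, and when it had at least 1000 counts summed over the 6 libraries. Of 17471 genes in the count tables, 87 matched by name and 79 reached 1000 counts, 48 named for the large subunit and 31 for the small subunit. The lowest total above the limit was 13552 counts (*RpL7-like*) and the highest below it was 640 counts (*RpS19b*), so no gene lay near the limit. The rule used no difference between genotypes. *RpL19*, *RpL27A*, *RpL31*, *RpS10b* and *RpS12* were not analysed here.

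The *dLsd1* mutant animals were dLsd1∆N/dLsd1∆N homozygotes, which carry a null allele of the histone demethylase dLsd1 (gene *Su(var)3-3*), a deletion made by recombination between transposon insertions and kept in the stock over a balancer chromosome. The *wild-type* animals were w1118, an inbred stock that was not made isogenic with the mutant, so the allele and the stock cannot be told apart. Both groups were wandering female larvae of the third instar reared at 25 °C with no treatment, and each had 3 libraries made from 30 wing discs apiece by stranded sequencing of polyadenylated RNA. The labels do not say whether replicates came from separate cultures, so p-values measure the spread between these samples.

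Ribosomal proteins and ribosomal RNA together build the small subunit, which decodes the mRNA, and the large subunit, which joins amino acids into protein. Most of these proteins are needed in equal number, and the mRNAs are among the most abundant of growing cells. In *Drosophila* the loss of 1 copy of many of these genes gives the *Minute* syndrome of slow development, short bristles and cells that are outcompeted by their neighbours in the wing disc. Several ribosomal proteins are also encoded by duplicated genes, of which 1 copy is often used mainly in the testis or ovary.

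The libraries held 35466251 to 42452820 counts in *dLsd1* mutant discs and 13960866 to 45909324 in *wild-type* discs, the lowest being *wild-type* replicate 2. *Su(var)3-3* had 7, 6 and 1 counts in the mutant libraries, against 2136, 676 and 2564 in the *wild-type* libraries, so every library matched its label. *Wild-type* replicate 3 stood apart from the other *wild-type* libraries, and leaving it out raised the number of genes called over the whole table to 1588, against 710 with it. Of 6 wing disc markers in the tables none was called, and their summed normalized counts ran between 45854 and 50123 in mutant discs and between 37396 and 61409 in *wild-type* discs. Among markers of other tissues 1 of 6 was called for fat body (*Lsp1alpha*, log2 fold change 2.17) and 1 of 5 for muscle (*Mlc2*, 0.63). For haemocytes 1 of 5 was called (*NimC1*, −1.88), and for gut 1 of 4 tested (*Amy-p*). None was called of 6 for salivary gland, 4 for trachea or 3 for adult muscle precursors. The other haemocyte markers, *Hml*, *Pxn*, *srp* and *eater*, went the other way, at 0.29, 0.69, 0.46 and 0.53. *Act57B*, *up*, *Mhc* and *wupA*, the other muscle markers, were also higher in the mutant, at 0.70, 1.01, 1.13 and 1.49. The median log2 fold change was 0.46 for haemocyte, 1.01 for muscle and −0.20 for fat body markers. Over all genes tested, 6.55% were called in either direction. *Amy-p* was called higher at low counts, with 19, 23 and 11 normalized counts in mutant discs, against 3, 0 and 0 in *wild-type* discs. Of the 6 gut markers 1 was at 0 in every library. Each sample is bulk tissue, so fewer cells of a type and less RNA per cell cannot be told apart.

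Ribosomal protein mRNAs were among the most abundant of the wing disc. In normalized CPM (counts scaled to a common library size) per kilobase of exon, the median of the 79 genes was 1942 in mutant discs and 2071 in *wild-type* discs, and the median over the 10688 genes tested with a known length was 10.955 as the mean of both genotypes. Ribosomal protein genes took 40 of the 50 highest places and 67 of the 100 highest on this scale. The levels lay close together, and 64 of the 79 genes were within 2-fold of their common median of 1983. *RpL41*, which encodes a very short basic peptide of the large subunit, had the highest level, at 11443 in mutant discs and 13517 in *wild-type* discs. *RpS27A*, which is made as a fusion with ubiquitin, came next at 4405 and 4260, followed by *RpL39*, a small protein of the exit tunnel, at 3986 and 4173. The study's methods name a removal of duplicate reads, but not whether it came before these counts were made. If it did, it would lower the most abundant and shortest genes most, so levels, shares and ranks are those of the counts as deposited. With coding length in place of exon length *RpL41* and *RpL39* still ranked 1 and 4 of the 79 genes, and *RpS27A* ranked 11.

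The lowest levels belonged to genes named as like a ribosomal protein. *RpL7-like* had 34.8 on the same scale in mutant discs and 36.1 in *wild-type* discs, *RpLP0-like* 108 and 126, and *RpL24-like* 246 and 273. Their yeast relatives, Rlp7, Mrt4 and Rlp24, are factors that assemble the large subunit and leave before it is complete, so these 3 genes match the name but may not code for parts of the finished ribosome. Next above them on the scale stood *RpS15Ab* and *RpL34a*, which are members of duplicated pairs described further on.

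**Figure D1:**
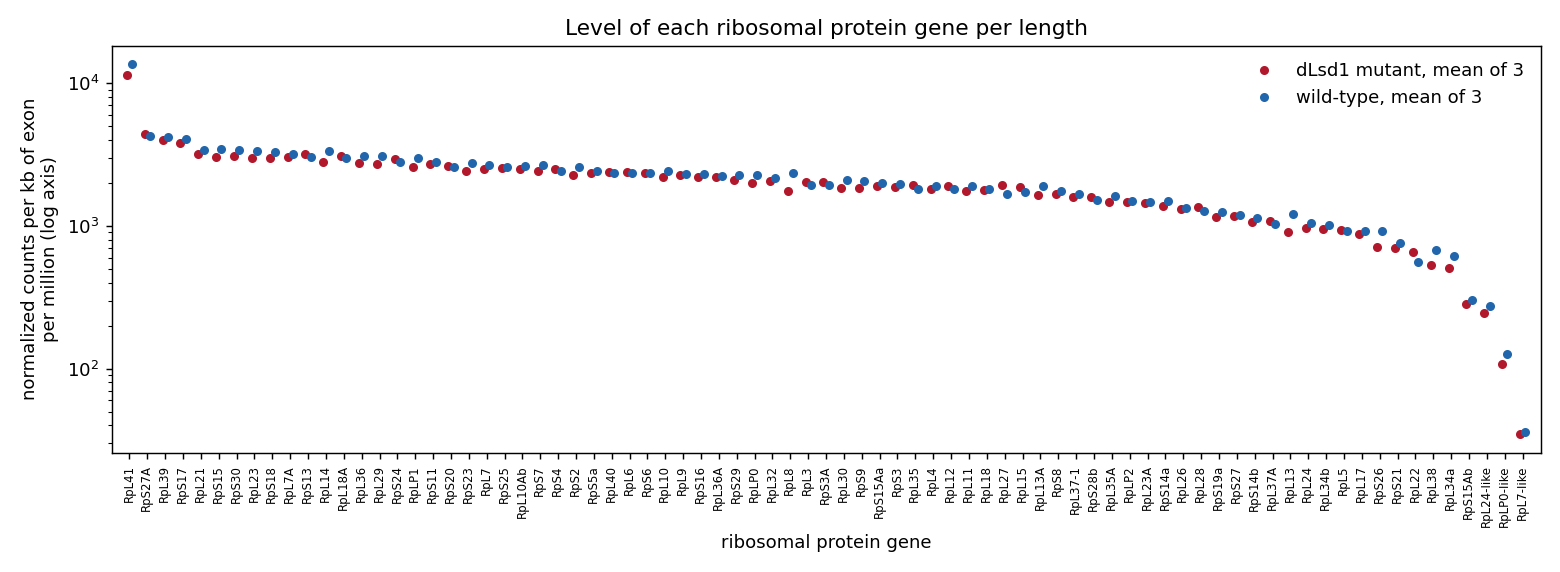
Level of each of the 79 ribosomal protein genes in normalized CPM per kilobase of exon (log axis), as the mean of 3 *dLsd1* mutant libraries (red, left point) and 3 *wild-type* libraries (blue, right point), ordered by level. *RpL41* stands above the others, most genes lie within 2-fold of 1983, and the 3 genes named as like another gene are at the low end.

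Ribosomal protein genes took a similar part of the gene counts in both genotypes. They held 15.4%, 15.2% and 13.5% of the gene counts in *dLsd1* mutant replicates 1 to 3, against 15.3%, 17.1% and 12.9% in *wild-type* replicates 1 to 3. The mean was 14.7% ± 1.06 in mutant discs and 15.1% ± 2.12 in *wild-type* discs (SD, n = 3 each), a difference smaller than the spread within either genotype. Replicate 3 had the lowest share in both genotypes, and *wild-type* replicate 2 the highest of all. Without *wild-type* replicate 3 the difference was −1.48 percentage points, and without *wild-type* replicate 2 it was 0.64, so its sign depended on the library left out.

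The summed level of fat body markers ran almost in the same order over the libraries. The 6 markers, which include the larval serum proteins *Lsp1beta* and *Lsp2* that the fat body secretes in the third instar, summed to 20009, 12968 and 4233 normalized counts in mutant replicates 1 to 3, against 20655, 30966 and 2167 in *wild-type* replicates 1 to 3. The same extremes were seen in summed salivary gland markers, which were highest in *wild-type* replicate 2 (851) and lowest in *wild-type* replicate 3 (21). Summed wing disc markers were instead highest in *wild-type* replicate 3 (61409). Within the fat body list, single markers did not all keep the order of the sum. *Fbp1*, *Lsp2* and *Fbp2* were highest in *wild-type* replicate 2. *Lsp1beta* was highest in mutant replicate 2 (3489), *Lsp1gamma* in mutant replicate 1 (3257), and *Lsp1alpha* was lowest in *wild-type* replicate 2 (18). No marker of this list was at 0 over all libraries, and 5 of the 6 did not pass the test between genotypes. Its part in the ribosomal protein share was not tested.

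**Figure D2:**
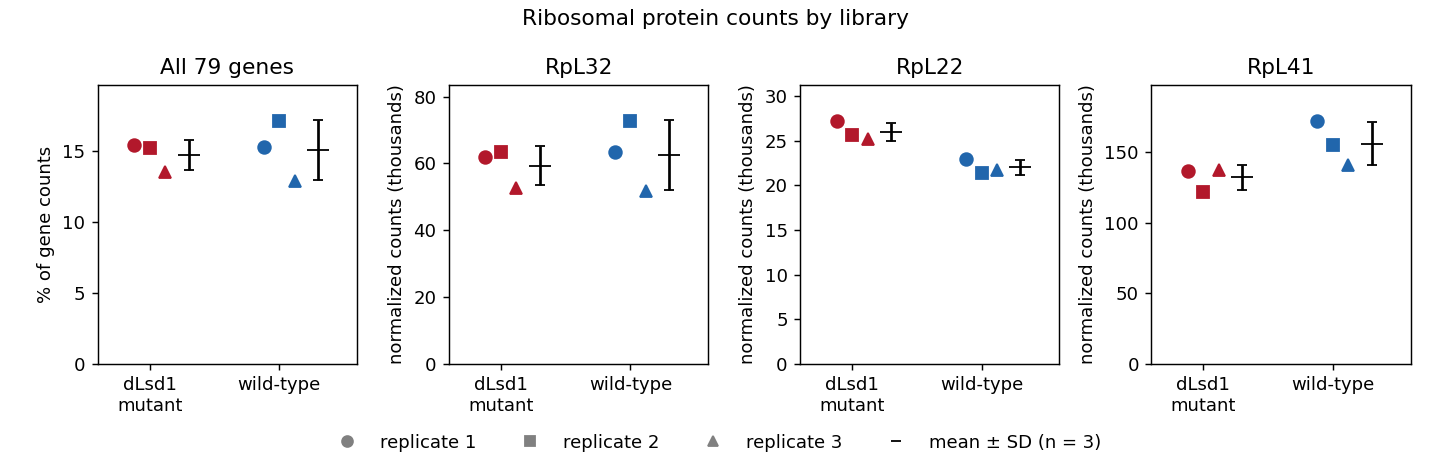
Share of gene counts on the 79 ribosomal protein genes (left panel) and normalized counts (axis in units of 1000) of *RpL32*, *RpL22* and *RpL41* in each library, with *dLsd1* mutant in red left of *wild-type* in blue, markers for replicates 1 to 3, and the mean ± SD at the side (n = 3). For the share and for *RpL32* the genotypes overlap, the 3 mutant values of *RpL22* lie above the *wild-type* values, and those of *RpL41* lie below.

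The comparison of *dLsd1* mutant with *wild-type* discs asked whether loss of the demethylase moved ribosomal protein mRNAs, and no ribosomal protein gene passed the test. All 79 genes passed the minimum of 10 counts over the 6 libraries and were tested with edgeR's quasi-likelihood F-test, with p-values adjusted over all genes and transposable element families. None was called, which took an adjusted p below 0.1 and a log2 fold change beyond 0.6 in either direction, where 6.55% of all genes tested were called. None was at an adjusted p below 0.1 with no limit on the fold, where 7.93% of all genes were, and none was at an unadjusted p below 0.05, where 18.5% of all genes were. With DESeq2 the number called was also 0. There 1 of the 79 genes was at an unadjusted p below 0.05, and the share of all genes at that p is not given for DESeq2. The lowest p was 0.0529 and the lowest adjusted p in this test was 0.269, both for *RpL22*.

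The fitted differences were small. The log2 fold changes, mutant over *wild-type*, ran between −0.42 and 0.24, and 42 of the 79 were within 0.1 of 0 and 66 within 0.2. Their median was −0.07, beside −0.02 over all genes tested and −0.05 over the 7204 genes with at least 1000 counts. The value was above 0 for 19 genes and below 0 for 60. Large subunit genes had a median of −0.07 with 12 above 0, and small subunit genes a median of −0.08 with 7 above 0. The standard errors were between 0.107 and 0.305 with a median of 0.154, against 0.171 for all genes tested. For 67 genes the 95% interval lay wholly inside a log2 fold change of 0.6 in either direction, and for the other 12 it reached past it, the outermost bounds being −1.09 for *RpL8* and 0.67 for *RpL17*. The sign of the median also followed single libraries, as it was −0.18 without *wild-type* replicate 3, 0.02 without *wild-type* replicate 2 and 0.01 without mutant replicate 3.

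**Figure D3:**
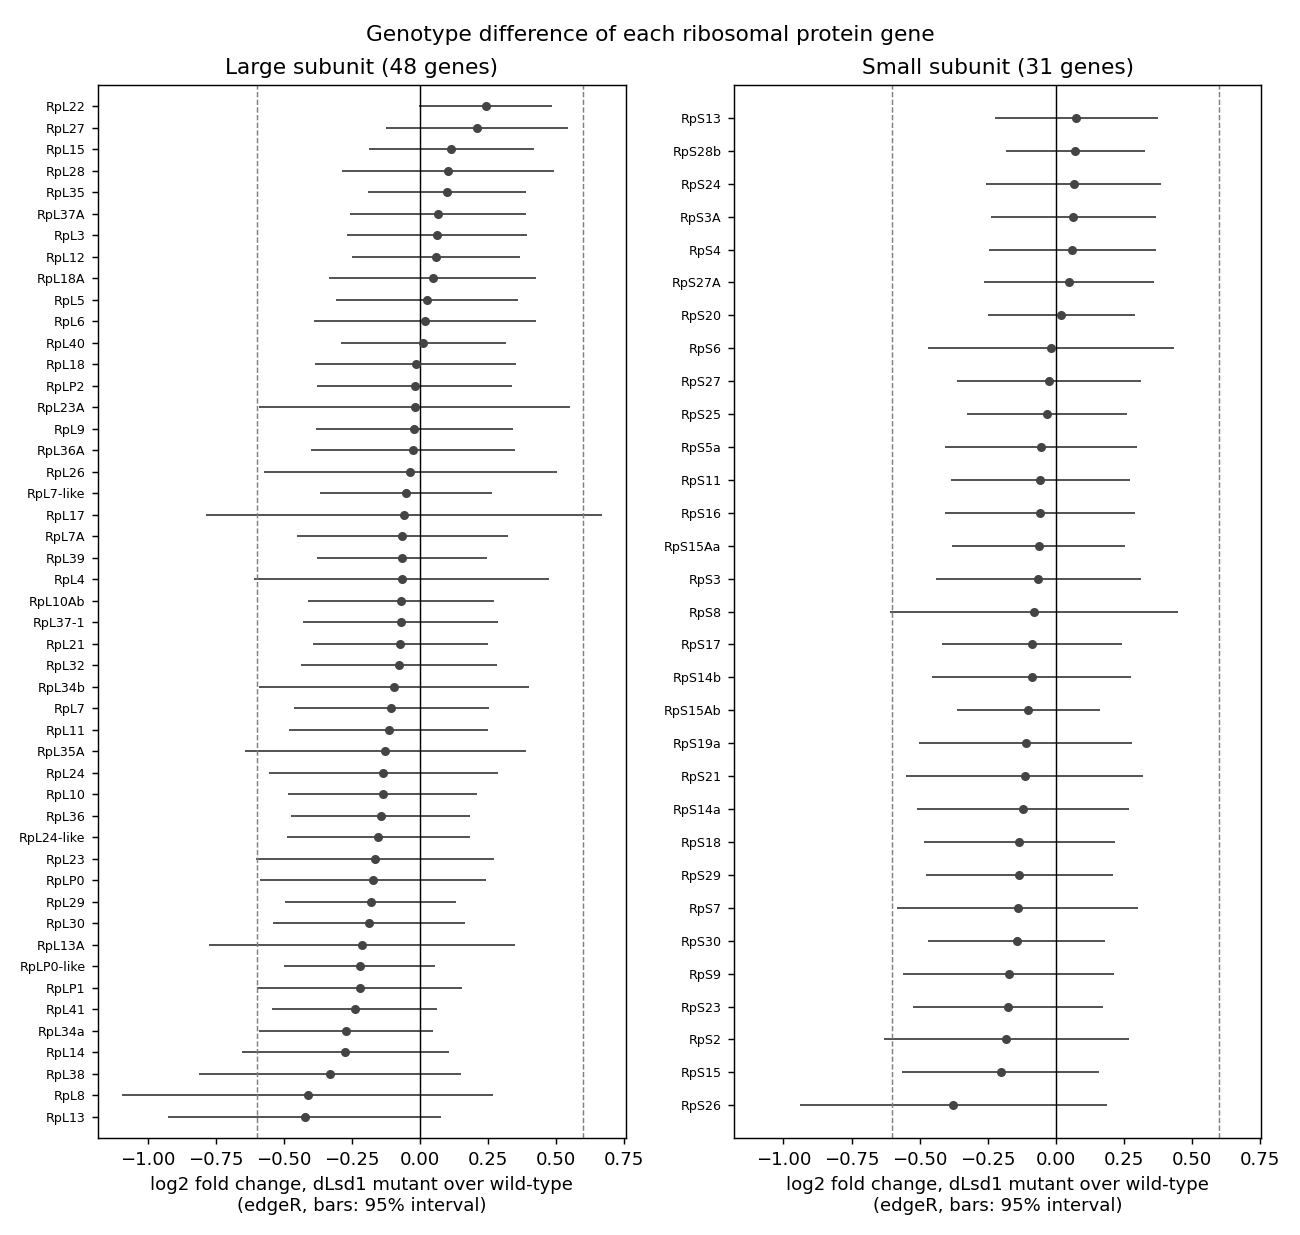
Log2 fold change of each ribosomal protein gene, *dLsd1* mutant over *wild-type*, with its 95% interval from edgeR (3 libraries per genotype), for the large subunit (left) and the small subunit (right). Every point lies inside the dashed lines at −0.6 and 0.6, and 12 intervals cross the line at −0.6 or 0.6.

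*RpL32*, which encodes a large subunit protein and is the *Rp49* gene that served as reference in the study's RT-qPCR, had 62020, 63456 and 52535 normalized counts in mutant discs, against 63394, 72582 and 51730 in *wild-type* discs. The genotypes overlapped, with replicate 3 lowest in both. The log2 fold change was −0.08 with a standard error of 0.157 (adjusted p = 0.819 in edgeR's quasi-likelihood test), and its 95% interval ran between −0.44 and 0.28. On this scale the gene did not pass the test, and the interval holds differences of up to 0.44 in the lower direction.

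*RpL22* was the only gene of the 79 whose values did not overlap with the mutant above, where 13.2% of all genes tested were of this kind. Its protein carries, in *Drosophila*, an extension that resembles histone H1, and the gene lies on chromosome X at 762560 to 765130 on the minus strand (BDGP6, the dm6 assembly). It had 27175, 25613 and 25224 normalized counts in mutant discs, against 22918, 21400 and 21697 in *wild-type* discs, so the lowest mutant library was above the highest *wild-type* library. The log2 fold change was 0.24 with a standard error of 0.107 (adjusted p = 0.269 in edgeR's quasi-likelihood test). Its spread between replicates, as the mean of both genotypes, was also the smallest of all 79 genes, though within the mutant other genes such as *RpL10Ab* varied less.

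The next 4 highest log2 fold changes belonged to other large subunit genes. *RpL27* had 75455, 73884 and 57650 normalized counts in mutant discs, against 56597, 65435 and 56861 in *wild-type* discs, a log2 fold change of 0.21 with a standard error of 0.146. *RpL15*, *RpL28* and *RpL35* had log2 fold changes of 0.12, 0.10 and 0.10. In all 4 genes the genotypes overlapped. Leaving out 1 library gave between 0.13 and 0.32 for *RpL27*, 0.04 and 0.19 for *RpL15*, 0.00 and 0.25 for *RpL28*, and 0.04 and 0.18 for *RpL35*.

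*RpL41* was the only gene of the 79 whose values did not overlap with the mutant below, where 11.9% of all genes tested were of this kind. It lies on chromosome 2R at 24903416 to 24903935 on the minus strand. It had 136790, 122005 and 137251 normalized counts in mutant discs, against 171742, 155302 and 140800 in *wild-type* discs, with only a small gap between the highest mutant and the lowest *wild-type* library. The log2 fold change was −0.24 with a standard error of 0.133 (adjusted p = 0.371 in edgeR's quasi-likelihood test). The other 77 of the 79 genes overlapped between genotypes.

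The 5 lowest log2 fold changes were those of *RpL13*, *RpL8*, *RpS26*, *RpL38* and *RpL14*. *RpL13*, a large subunit gene on chromosome 2L at 9967313 to 9968645 on the plus strand, had 46334, 42371 and 29298 normalized counts in mutant discs, against 47448, 66410 and 44350 in *wild-type* discs, a log2 fold change of −0.42 with a standard error of 0.217. *RpL8*, whose protein lines the site where peptide bonds are made, had 89188, 86107 and 47178 in mutant discs, against 85052, 129464 and 81552 in *wild-type* discs, a log2 fold change of −0.41 with a standard error of 0.289. In both genes mutant replicate 3 was the low library and *wild-type* replicate 2 the high library, and the others lay close together. *RpS26*, a small subunit protein near the exit of the mRNA, had 57864, 51843 and 33942 in mutant discs, against 55606, 79600 and 51228 in *wild-type* discs, with the same outlying libraries and a log2 fold change of −0.38. *RpL14*, another large subunit gene, had 67075, 65762 and 53735 in mutant discs, against 76465, 87673 and 61424 in *wild-type* discs, a log2 fold change of −0.27. *RpL38* departed from this order, with 17289, 16870 and 24417 normalized counts in mutant discs, against 30998, 19922 and 22782 in *wild-type* discs, so its high library was *wild-type* replicate 1, and its log2 fold change was −0.33. The adjusted p of these 5 genes was between 0.344 and 0.484 in edgeR's quasi-likelihood test. Single libraries set much of their size. Without *wild-type* replicate 2 the log2 fold change was −0.22 for *RpL13*, −0.17 for *RpL8*, −0.16 for *RpS26* and −0.15 for *RpL14*, and without mutant replicate 3 it was −0.25, −0.17, −0.18 and −0.18 for these genes in the same order. For *RpL38* it was −0.13 without *wild-type* replicate 1 and −0.52 without mutant replicate 3.

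Without *wild-type* replicate 3, 9 ribosomal protein genes were at an adjusted p below 0.1 in edgeR's test, all lower in the mutant and none past a log2 fold change of 0.6 in size, where 17.8% of all genes tested were lower at that p. They were *RpL14* (−0.40), *RpL34a* (−0.37), *RpS15* (−0.32), *RpL30* (−0.32), *RpLP0-like* (−0.31), *RpL41* (−0.31), *RpS23* (−0.30), *RpL29* (−0.29) and *RpL24-like* (−0.27). Their share of the 79 genes was below that of all genes.

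Taking each mutant library with the *wild-type* library of the same number gave a median log2 ratio over the 79 genes of −0.01 for number 1, −0.19 for number 2 and −0.03 for number 3. The ratio was above 0 for 36, 16 and 32 genes in that order. It was above 0 in all 3 pairs for 4 genes and below 0 in all 3 for 18. The share of all genes with the same sign in all 3 pairs is not given here, so these counts are a description only. With the number as a block in the fit none was called. Without the block 18.5% of all genes were at an unadjusted p below 0.05, and the share with the block is not given here. So the 6 of the 79 genes at that p with the block, where none was without it, are only named. These were *RpL13* (−0.43), *RpL8* (−0.44), *RpS26* (−0.39), *RpL34a* (−0.27) and *RpL14* (−0.27), lower in the mutant, and *RpL22* (0.24), higher. The lowest adjusted p of the 79 genes with the block was 0.152 in edgeR's quasi-likelihood test.

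The larger part of the variation lay between replicates of a genotype. The median coefficient of variation of the 79 genes over 3 replicates was 11.7% in mutant discs and 14.9% in *wild-type* discs, against 6.84% and 13.2% for all genes with at least 1000 counts. It was higher in *wild-type* discs for 54 of the 79 genes. The highest library was a median of 1.40 times the lowest. Mutant replicate 3 was the lowest of the 6 libraries for 45 genes and *wild-type* replicate 3 for 29, and *wild-type* replicate 2 was the highest for 46. Within the mutant, replicate 3 was the lowest for 67 of the 79 genes, and within *wild-type*, replicate 3 for 73.

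**Figure D4:**
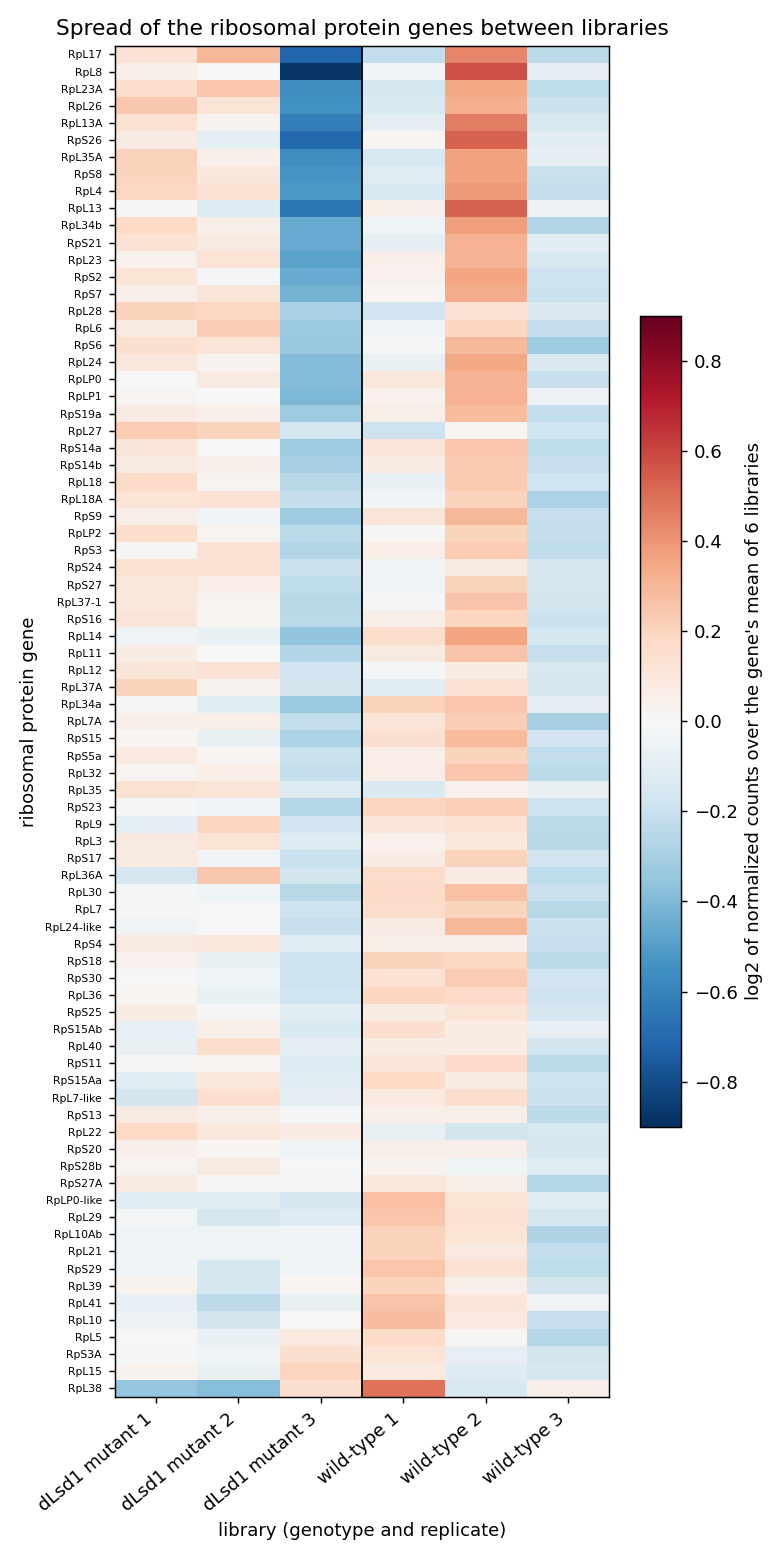
Log2 of the normalized counts of each ribosomal protein gene in each library over the mean of that gene in the 6 libraries, with the 3 *dLsd1* mutant libraries left of the line and the 3 *wild-type* libraries right of it; genes are ordered by the log2 ratio of mutant replicate 3 to the mean of mutant replicates 1 and 2, lowest at the top. The column of mutant replicate 3 is blue for most genes and that of *wild-type* replicate 2 red, and *RpL38* in the bottom line runs the other way.

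Genes did not share this variation evenly. Set against the mean of mutant replicates 1 and 2, mutant replicate 3 was lower for 69 genes and higher for 10, with a median log2 ratio of −0.27. In 15 genes, 10 of them of the large subunit, it was lower by 0.5 or more, with log2 ratios between −0.93 and −0.50. Of these 15 genes, 14 were at least 0.4 higher in *wild-type* replicate 2 than in the mean of *wild-type* replicates 1 and 3, and the range over all 15 was 0.35 to 0.67. *Wild-type* replicate 2 was higher in this sense for 73 of the 79 genes, with a median log2 ratio of 0.26. Over the 79 genes the deviations of these 2 libraries had a Pearson correlation of −0.94 and a Spearman correlation of −0.92, as a description over genes that share the same libraries and normalization. Neither deviation followed gene size closely, with Pearson correlations to coding length of −0.22 for mutant replicate 3 and 0.24 for *wild-type* replicate 2 over the same 79 genes.

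*RpL17*, a large subunit protein that lines the exit tunnel, had the largest mean coefficient of variation, 30.9%. It had 39607, 44611 and 22066 normalized counts in mutant discs, against 30973, 49033 and 30790 in *wild-type* discs, and a log2 fold change of −0.06. *RpL8* followed with 29.3%, and *RpL23A*, whose protein sits at the mouth of the tunnel, with 25.3% and counts of 77715, 82817 and 47401 in mutant discs, against 62420, 88849 and 59542 in *wild-type* discs. For 11 genes the coefficient was above 20% in both genotypes. At the other end stood *RpL22* with 3.81%, *RpS28b* with 3.85% and *RpS20* with 5.31%, the last of these a small subunit protein of the head. *RpS28b* had 55195, 57253 and 54075 normalized counts in mutant discs, against 55389, 52724 and 50328 in *wild-type* discs, a log2 fold change of 0.07. *RpS20* had 54781, 53893 and 52039 in mutant discs, against 55314, 55226 and 47950 in *wild-type* discs, a log2 fold change of 0.02.

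The duplicated genes differed widely in how a pair was divided. For 9 pairs the share of the pair's counts on the less abundant gene was compared by a two-sided exact permutation test over the 6 samples, which cannot give a p below 0.10 here, so no pair could have passed 0.05 and the test does not show that the division was the same in both genotypes. The lowest p of this exact permutation test was 0.2, for *RpL34a*, and no p adjusted over the 9 pairs was below 0.9. How the authors' counting assigned reads that fit both copies of a pair is not given in the sources used here, so the split between near-identical copies is uncertain.

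In the S14, L34 and S15A pairs both copies held counts in every library. Whether both were in use depends on how reads that fit both copies were assigned, which is not known here. *RpS14b* and *RpS14a* encode the same small subunit protein and lie side by side on chromosome X, at 7934898 to 7935792 and 7933742 to 7934677 on the plus strand. *RpS14b* took 34.1%, 35.3% and 34.8% of the pair in mutant discs, against 33.7%, 34.2% and 34.8% in *wild-type* discs, which is nearly the same value in every library although the levels of both genes varied between libraries. The log2 fold change was −0.09 for *RpS14b* and −0.12 for *RpS14a*. *RpL34a* took 25.1%, 25.9% and 29.5% of its pair with *RpL34b* in mutant discs, against 31.4%, 26.1% and 30.3% in *wild-type* discs, a mean difference of −2.42 percentage points with overlapping values. *RpL34a* had a log2 fold change of −0.27 and *RpL34b*, which varied more between replicates, of −0.10. *RpS15Ab* took 10.5%, 10.1% and 10.1% of its pair with *RpS15Aa* in mutant discs, against 10.2%, 10.3% and 11.1% in *wild-type* discs, with log2 fold changes of −0.10 for *RpS15Ab* and −0.06 for *RpS15Aa*.

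The assembly factor relatives kept to a minor share of the sum with the gene they resemble. *RpL24-like* took 12.5%, 13.3% and 15.2% of the sum with *RpL24* in mutant discs, against 14.8%, 13.2% and 13.1% in *wild-type* discs. *RpLP0-like* took 3.54%, 3.35% and 4.42% of the sum with *RpLP0*, whose protein anchors the stalk of the large subunit, in mutant discs, against 4.20%, 3.34% and 4.05% in *wild-type* discs. *RpL7-like* took 1.83%, 2.28% and 2.22% of the sum with *RpL7* in mutant discs, against 1.96%, 2.01% and 2.15% in *wild-type* discs. The log2 fold changes were −0.15 for *RpL24-like* and −0.14 for *RpL24*, −0.22 for *RpLP0-like* and −0.17 for *RpLP0*, and −0.05 for *RpL7-like* and −0.10 for *RpL7*.

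**Figure D5:**
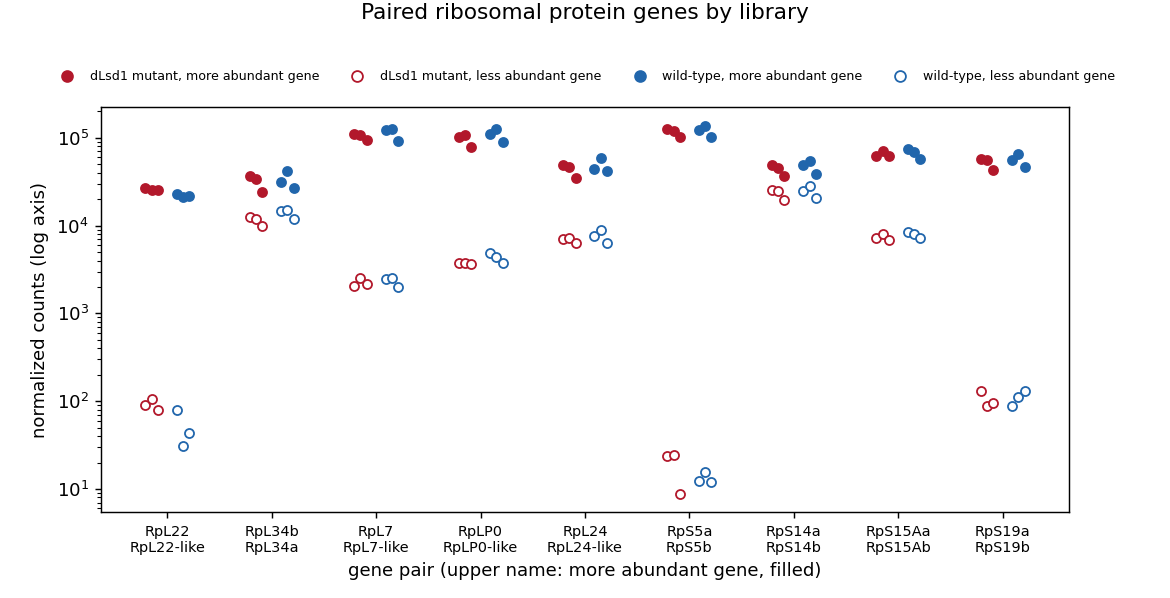
Normalized counts (log axis) of both genes of 9 pairs in each library, with the more abundant gene as filled and the less abundant as open circles, *dLsd1* mutant replicates 1 to 3 in red left of *wild-type* replicates 1 to 3 in blue. The open circles of *RpS14b* and *RpL34a* lie nearest their partners, followed by those of *RpL24-like* and *RpS15Ab*. Those of *RpLP0-like* and *RpL7-like* lie further below, and those of *RpL22-like*, *RpS19b* and *RpS5b* the furthest. Counts of different genes are not scaled for length.

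Copies known for their use in the germ line had low counts in the wing disc beside their partners. *RpL22-like*, known from the testis, took 0.334%, 0.416% and 0.316% of its pair with *RpL22* in mutant discs, against 0.341%, 0.144% and 0.202% in *wild-type* discs. It had 91, 107 and 80 normalized counts in mutant discs, against 78, 31 and 44 in *wild-type* discs, so the genotypes did not overlap, with only a small gap between the lowest mutant and the highest *wild-type* library. The log2 fold change was 0.82 with a standard error of 0.352 and did not pass the test after adjustment (adjusted p = 0.257 in edgeR's quasi-likelihood test). It was 1.27 without *wild-type* replicate 1 (adjusted p = 0.115 in the same edgeR test) and 0.60 without *wild-type* replicate 2. *RpS19b*, known from the germ line, took 0.226%, 0.159% and 0.221% of its pair with *RpS19a* in mutant discs, against 0.154%, 0.167% and 0.277% in *wild-type* discs, with log2 fold changes of −0.06 for *RpS19b* and −0.11 for *RpS19a*. *RpS5b*, known from the ovary, had 24, 25 and 9 normalized counts in mutant discs, against 12, 15 and 12 in *wild-type* discs, at most 0.021% of its pair with *RpS5a* in any library, and a log2 fold change of 0.56 for *RpS5b* (adjusted p = 0.579 in the same edgeR test) beside −0.05 for *RpS5a*. For *RpS5b* it was 0.89 without mutant replicate 3, 0.37 without mutant replicate 1 and 0.30 without mutant replicate 2.

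*RpL10Aa*, *RpS28a* and *RpS28-like* had 0 counts in every library, and *RpL37-2* had 1 count in the 6 libraries together. A count of 0 allows up to 3 counts over the 6 libraries, which is at most 0.000575% of the pair for *RpL10Aa* with *RpL10Ab* and 0.000923% for *RpS28a* or *RpS28-like* with *RpS28b*. These limits cover counting error only. The partners in use, *RpL10Ab* and *RpL37-1*, had a log2 fold change of −0.07 each. *RpS10a* had 40 counts over the 6 libraries and a log2 fold change of 0.12, and its pair could not be formed here.

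The genes were spread over all chromosome arms, with 17 on 2L, 17 on 2R, 13 on 3L, 18 on 3R, 13 on X and 1 on chromosome 4. The median log2 fold change by arm was −0.07 on 2L, −0.11 on 2R, −0.07 on 3L, −0.08 on 3R and −0.06 on X, and *RpS3A* on chromosome 4 had 0.06. *RpL26* and *RpLP0*, the only 2 of these genes within 2 Mb of *Su(var)3-3* on 3L, had log2 fold changes of −0.04 and −0.17. Small nucleolar RNAs, which guide the modification of ribosomal RNA, are encoded within many of these genes, and 26 of the 79 held 71 annotated small nucleolar RNA genes. Their median log2 fold change was −0.06, beside −0.10 for those that held none. In 23 of the 79 genes the exons overlapped a gene on the opposite strand, with a median of −0.07, equal to that of the others at this rounding.

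Other genes of the ribosome and of translation were called in few cases. *sta* and *Rack1*, small subunit components under other names, had log2 fold changes of 0.02 and −0.07, and *sta* had 131212, 128566 and 82758 normalized counts in mutant discs, against 100157, 145027 and 92061 in *wild-type* discs, with the same low and high libraries as *RpL8*. None of 30 translation initiation genes was called, where 6.55% of all genes tested were, and their median log2 fold change was −0.10. Of 5 translation elongation genes 1 was called higher, *eEF1alpha2*, a form of the factor that brings aminoacyl-tRNA to the ribosome and is known from muscle and neurons. *eEF1alpha2* had 7353, 4537 and 4584 normalized counts in mutant discs, against 1418, 792 and 1192 in *wild-type* discs, a log2 fold change of 2.27 with a standard error of 0.284 (adjusted p = 0.00545 in edgeR's quasi-likelihood test), and every mutant library was above every *wild-type* library. Summed muscle markers were 3646, 3214 and 1850 normalized counts in mutant discs, against 1726, 1981 and 1502 in *wild-type* discs, and their part in the value of *eEF1alpha2* was not tested.

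Among genes that make ribosomes, 1 of 30 tested for ribosome biogenesis and 1 of 10 for RNA polymerase I and Myc were called, both lower in the mutant, where 6.55% of all genes were called in either direction. *Surf6*, a nucleolar protein of rRNA processing, had 1529, 1773 and 1637 normalized counts in mutant discs, against 2606, 2569 and 2547 in *wild-type* discs, a log2 fold change of −0.64 (adjusted p = 0.0095 in edgeR's quasi-likelihood test). *Polr1E*, a subunit of RNA polymerase I, which transcribes the ribosomal RNA genes, had 2063, 2042 and 2178 in mutant discs, against 4437, 3526 and 3559 in *wild-type* discs, a log2 fold change of −0.88 (adjusted p = 0.00513 in the same edgeR test). The medians of these lists were −0.17 for ribosome biogenesis and −0.24 for RNA polymerase I and Myc, beside −0.02 for all genes tested. Of 6 genes of the stress response to loss of a ribosomal protein none was called. Among them *Xrp1*, a transcription factor induced in *Minute* cells, had a log2 fold change of 0.08. *crc*, the *Drosophila* ATF4, had 59798, 57880 and 62769 normalized counts in mutant discs, against 47011, 41211 and 40338 in *wild-type* discs, with no overlap, and its log2 fold change of 0.49 was below the limit on size (adjusted p = 0.055 in edgeR's quasi-likelihood test).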

How the data were processed

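RNA-seq counts of genes and transposable element (TE) families in 6 libraries were used. Per the labels and the study's methods, the authors trimmed reads with Trimmomatic 0.36, aligned them to dm6 with STAR 2.5.2a, and deposited whole-number counts without normalization. The methods also name Picard for removing duplicates, htseq-count for genes and TEToolkit for TEs, but not which of these steps made the deposited tables, so whether duplicates were removed before counting is not known here. The gene annotation, the strand setting of counting and how reads with several matches were handled are not given in the sources used here, so values of near-identical copies and of overlapping genes may be split or shared.

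Counts were tested in edgeR 4.0.16 (R 4.3.3) with TMM normalization and the robust quasi-likelihood F-test on genotype, over the 10841 genes and 150 TE families that reached 10 counts over the 6 libraries, with Benjamini-Hochberg adjustment over all of them. Genes were called at an adjusted p below 0.1 with a log2 fold change beyond 0.6 in either direction. The procedure was tested on simulated data. Normalized counts are counts scaled by TMM to the mean library size. Lengths and positions came from the Ensembl annotation of BDGP6, matched by FlyBase identifier for 17249 of 17471 genes. DESeq2 1.42.0, other normalizations and filters, an adjustment for length and leaving out each library were tried.

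Libraries totalled 13960866 to 45909324 counts. Replicates of a genotype differed beyond sampling noise, so each counted as 1 sample. Same-numbered libraries deviated together from their genotype means over 7977 genes (correlations of 0.363, 0.168 and 0.413 for numbers 1, 2 and 3), so the number was also fitted as a block. Of the libraries with different numbers, mutant 1 and *wild-type* 2 also deviated together (0.304), more than the pair numbered 2, so the numbers account for only part of the shared deviations.

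The genes, pairs and lists were chosen with earlier results of these data known. The genes named were *RpL32*, those called, the 5 highest and 5 lowest log2 fold changes, all members of pairs, the 3 highest and 3 lowest levels per length, the 3 largest and 3 smallest coefficients of variation, and those next to the limit of 1000 counts. Genes that did not overlap, or that are named in a list beyond these, were singled out after their values were seen.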

Additional observations from a re-analysis of the deposited data

How the results depend on the processing

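No ribosomal protein gene was called under any alternative, and the median log2 fold change was between −0.07 and −0.05 under every normalization, filter, length and replicate block setting, being −0.07 with the replicate block, which changed no call of a ribosomal protein gene. Leaving out 1 library gave medians between −0.18 and 0.02, and moved the number of genes at an adjusted p below 0.1 with no limit on the fold to between 0 and 9. The sign of several small log2 fold changes depended on the library left out. They ran between −0.20 and 0.043 for *RpL32*, −0.20 and 0.024 for *RpL10Ab*, −0.23 and 0.10 for *RpL34b*, −0.16 and 0.052 for *RpL37-1*, −0.17 and 0.021 for *RpL7-like*, −0.23 and 0.029 for *RpL24*, −0.16 and 0.046 for *RpS5a*, −0.36 and 1.43 for *RpS10a*, −0.20 and 0.022 for *RpS14b*, −0.16 and 0.017 for *RpS15Aa*, −0.23 and 0.018 for *RpS19a*, −0.24 and 0.10 for *RpS19b*, −0.16 and 0.023 for *RpL39*, −0.055 and 0.11 for *RpS27A*, −0.046 and 0.053 for *RpS20*, −0.19 and 0.19 for *RpL23A*, and −0.29 and 0.20 for *RpL17*. With the length trend removed *RpL23A* was at 0.020. The cause of these shifts was not tested. With 3 libraries per genotype the exact test of a pair cannot pass 0.05, and the low counts of *RpL22-like*, *RpS5b*, *RpS10a* and *RpS19b* limit their precision, most of all in *wild-type* replicate 2.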

Other observations

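Some of the genes that departed from the common order of libraries lay toward the centromere side of their arm or on chromosome 4. This was seen in the values first and is given as a description with no test. Of the 79 ribosomal protein genes, 10 were higher in mutant replicate 3 than in the mean of mutant replicates 1 and 2. Among the 2 genes nearest the centromere side of each of 5 arms (2L, 2R, 3L, 3R and X) and the gene on chromosome 4, 11 in all, 6 were of this kind, and among the other 68 genes 4 were. The 6 were *RpL38* on 2R at 4515388 to 4516458 (log2 ratio 0.52), *RpL15* on 3L at 27267255 to 27268445 (0.21), *RpS3A* on chromosome 4 at 65225 to 67207 (0.17), *RpL5* on 2L at 22532279 to 22536884 (0.12), *RpL10* on 3L at 23093190 to 23095471 (0.10) and *RpL21* on 2L at 22247111 to 22247875 (0.01). *RpL5*, *RpL15* and *RpL38* are known as ribosomal protein genes that lie in or next to pericentric heterochromatin. The 4 among the other 68 genes were *RpL41* (0.09), *RpL39* (0.08), *RpS29* (0.06) and *RpL10Ab* (0.01). The 5 of the 11 that were not higher in mutant replicate 3 were *RpLP0-like* on 2R from 10098518 (−0.05), *RpS5a* on X from 17143588 (−0.26), *RpS19a* on X from 16637894 (−0.38), *RpL35A* on 3R from 5465630 (−0.69) and *RpL13A* on 3R from 5624474 (−0.70). Being nearest of the 79 genes on an arm does not place a gene beside the centromere. Between genotypes none of the 11 passed the test, and their median log2 fold change was −0.11.

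*Myc*, the transcription factor that drives ribosome production, had 404, 879 and 1130 normalized counts in mutant replicates 1 to 3, against 379, 887 and 3108 in *wild-type* replicates 1 to 3, and its antagonist *Mnt* had 112, 226 and 269, against 126, 333 and 1316. Both were highest in *wild-type* replicate 3, the library with the lowest share of counts on ribosomal protein genes. This was not particular to them, as *eIF4G1*, *eIF4H1*, *pAbp*, *sd* and *zfh1* were also highest in that library. A link of *Myc* or *Mnt* to the ribosomal protein share was not tested.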
